A study of Mus musculus with 8 samples.

Results

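Very wide DRIP-seq peaks are stretches of at least 5000 bp over which DNA pulled down by S9.6, an antibody to RNA:DNA hybrids, was called as 1 enriched peak. The deposited lists have the broad-peak layout, though the methods name a narrow-peak option. The peaks are read as broad peaks here, and a broad peak can link enriched stretches across weaker gaps. The wide peaks were taken from 4 peak lists of mouse embryonic fibroblasts (MEFs) by 1 rule: the end of the peak minus its start was at least 5000 bp. This gave 1397 of the 344010 peaks in the lists, and peaks that shared at least 1 bp were merged into 1153 regions, of 194961 merged regions in all. Their width was therefore what chose them and is given as a description. All cells were Rtel1F/F;WT RNH1-GFP MEFs, in which both alleles of Rtel1, a DNA helicase gene, are flanked by loxP sites and a wild-type RNaseH1-GFP fusion is induced by doxycycline. They were infected with an adenovirus expressing GFP, which leaves Rtel1 in place (GFP cells), or with one expressing Cre-GFP, which deletes it (Cre cells). They then grew for 48 h with (DOX) or without (mock) 2 µg/ml doxycycline, starting 48 h after infection. The groups were thus Cre DOX, Cre mock, GFP DOX and GFP mock, and each was 1 DRIP library made from 3 pooled immunoprecipitations. The input library of each group was not analysed here. With 1 library in a group there was no replicate and no test between groups, and every difference below is one between 2 peak lists. The lists give no read numbers, so the depth of the libraries is unknown, and a deeper library, or one with more enrichment, cannot be told apart from a group with more hybrids.

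In an R-loop a new transcript stays annealed to the strand it was copied from, leaving the opposite strand single, and RNaseH1 degrades the RNA of such hybrids. They are known at promoters, at the ends of genes and over GC-rich transcribed DNA, where the displaced guanine-rich strand can fold into G-quadruplexes (G4s). LINE-1 (L1) elements are retrotransposons that encode an RNA-binding protein in a first open reading frame (ORF1) and an endonuclease and reverse transcriptase in a second (ORF2). Most copies in a genome are old, truncated or mutated, and young copies are almost identical to each other, so that a short read from a young copy fits many places. In DRIP the DNA is first cut with restriction enzymes, and a fragment is pulled down whole even when the hybrid covers only a stretch of it.

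The wide regions fell into classes of very different sequence. An alignment of all regions to each other put 885 of the 1153 into a single group of similar sequences, and the next largest group held 4. The shared sequence carried an open reading frame of 1281 codons, found 3147 times among 4131 long frames at its matches in the mouse genome, behind a shorter frame of 371 or 357 codons. These are the reading frames of mouse L1, and the name rests on them, since no repeat annotation was used. L1 sequence was counted as stretches of at least 200 bp that aligned to the reading frames of 1 intact copy at 80% identity or more. More diverged L1 and the ends of the element beyond the frames were not counted. L1 sequence so defined covered at least 50% of 862 regions (74.8%), which are called L1 regions. Of the others, 267 were masked as repeats over less than 50% of their length (non-repeat regions) and 2 lay on the mitochondrial genome. The other 22 were mostly masked but below 50% L1 sequence (2.97 predicted G4s per kb). Outside the L1 class, 6 regions still held L1 sequence over at least 20% of their length.

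The same 100 bases of ORF2 are shown for an L1 copy with both reading frames intact (chr6:22646697-22651656, strand +, positions 1501 to 1600 of 4960) and for 4 wide regions, to show what the L1 regions share and how they differ. The first pair are regions that were wide in several lists and the second pair the longest that were wide only in Cre DOX, each taken where an alignment without gaps had at most 15 mismatches. Capitals mark the bases that differ from the intact copy.
Intact copy, chr6:22648197-22648296: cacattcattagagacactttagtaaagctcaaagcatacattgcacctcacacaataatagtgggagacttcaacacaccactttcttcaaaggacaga
Region in Vmn1r54, chr6:90263234-90263333, strand -: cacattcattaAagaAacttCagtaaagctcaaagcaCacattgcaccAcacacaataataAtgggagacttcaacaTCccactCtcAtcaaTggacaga
Region near Btbd35f25, chrX:31739028-31739127: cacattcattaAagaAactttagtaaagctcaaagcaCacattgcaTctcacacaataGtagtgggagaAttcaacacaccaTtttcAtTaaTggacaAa
Region near Gm38706, chr6:130512504-130512603: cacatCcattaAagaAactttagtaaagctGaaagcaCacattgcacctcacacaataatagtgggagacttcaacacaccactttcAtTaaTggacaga
Region near Gm43235, chr3:90898039-90898138, strand -: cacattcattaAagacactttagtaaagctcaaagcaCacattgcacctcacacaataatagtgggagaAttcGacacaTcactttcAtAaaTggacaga
The 4 windows had 11, 11, 8 and 8 mismatches in 100 bases.

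The non-repeat regions carried predicted G4s, of which the strongest 25-base window of 4 regions is shown on its guanine-rich strand, with runs of at least 3 guanines in capitals. All 4 scored above 2 in G4Hunter, which averages the length of guanine runs over the window, against the threshold of 1.5.
Plec, chr15:76170600-76170624, strand -: GGGGGttGGGGGaGGGGaGGGtGGG
Zbtb7a, chr10:81141104-81141128, strand +: GGGGGaGGGGGctacGGGGcaGGGG
Kctd17, chr15:78433109-78433133, strand +: aGGGGGaGGGGatgaaGGGaGGGGG
Kmt2d, chr15:98855435-98855459, strand -: gtGGGatGGGGGGGtGGGcggaGGG
The region of Plec held 38 predicted G4s, or 1.43 per kb, and that of Zbtb7a 58, or 4.88 per kb, against 2.00 per kb over all non-repeat regions.

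The lists differed in the number and the class of their wide peaks. Cre DOX had 984 of 105081 peaks, Cre mock 232 of 91097, GFP DOX 137 of 60219 and GFP mock 44 of 87613. At a limit of 10000 bp the numbers were 8, 17, 7 and 0 in that order, so that Cre mock and not Cre DOX had the most. Of the peaks of at least 5000 bp, 850, 24, 18 and 10 lay in L1 regions, and 119, 200, 113 and 24 in non-repeat regions. Most wide peaks of Cre DOX were therefore L1, and most of those of the other 3 lists were non-repeat. Wide peaks were 0.0502% of the peaks of GFP mock and 0.936% of those of Cre DOX. A single list had the wide peak in 1006 regions, 2 lists in 73, 3 lists in 52 and all 4 in 22. The regions that were wide only in Cre DOX numbered 862, of which 822 were L1, whereas of the 103 that were wide only in Cre mock 95 were non-repeat.

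**Figure D1:**
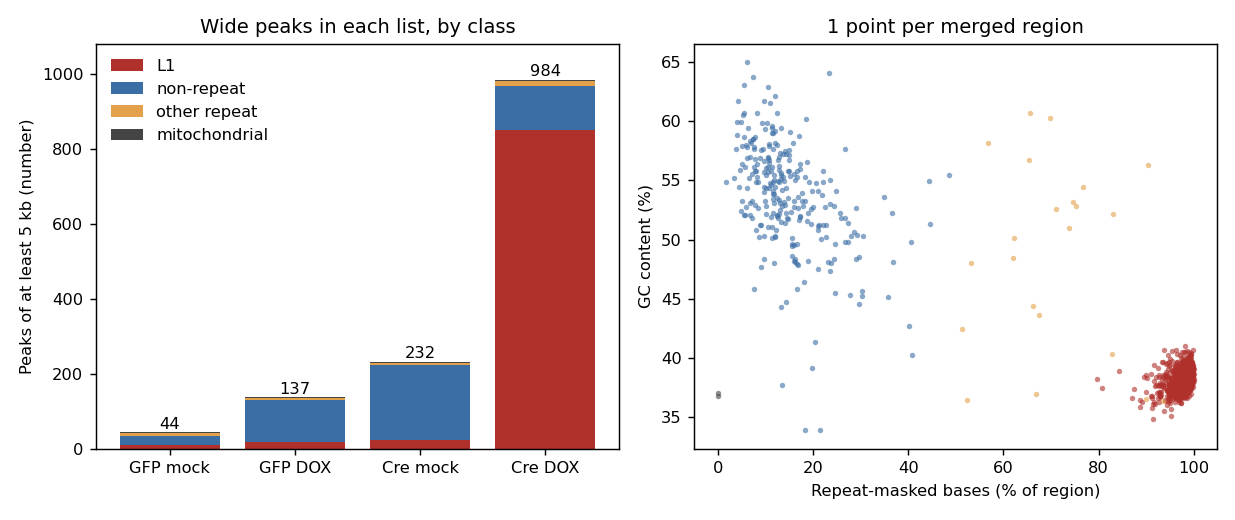
Left, the number of peaks of at least 5 kb in each of the 4 lists, stacked by class, with the total above each bar. Right, GC content against the repeat-masked share for each of the 1153 merged regions; the L1 regions sit together near 38.2% GC and 98.1% masked, apart from the non-repeat regions near 54.0% GC and 13.05% masked.

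The classes stood apart in composition as well. The median GC content was 38.2% in L1 regions and 54.0% in non-repeat regions, against 41.7% in the genome. The median masked share was 98.1% and 13.05%, against 36.4% in the genome. Predicted G4s numbered 0.110 per kb in L1 regions, 2.00 in non-repeat regions and 0.571 in the genome. The density in non-repeat regions was close to that of narrower peaks with 50 to 60% GC, which ranged from 1.97 per kb in Cre DOX to 2.18 in GFP mock. CpG dinucleotides numbered 4.80 per kb in L1 regions and 24.6 in non-repeat regions, against 8.26 in the genome. At least 1 predicted G4 lay in 266 of the 267 non-repeat regions and in 395 of the 862 L1 regions (45.8%, exact 95% interval 42.5 to 49.2). All intervals on shares cover the number of regions alone.

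The limit of width fell within a run of similar widths. The narrowest wide peaks were one of 5039 bp over Rarg in GFP mock, 5015 bp over Rnd3 in GFP DOX, 5003 bp in Cre mock, over Ggt6 and over Sdc2, and 5001 bp in Cre DOX, over no gene. Just under the limit lay peaks of 4973 bp in GFP mock and 4970 bp in GFP DOX, both over Tmem267, one of 4999 bp in Cre mock over Arid2, and one of 4998 bp in Cre DOX on the X chromosome.

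Non-repeat wide regions were regions of genes. A GENCODE gene overlapped 258 of the 267 (96.6%, 93.7 to 98.4) and a protein-coding gene 249 (93.3%, 89.6 to 96.0). Gene bodies made up 85.2% of their length and exons 37.5%, against 44.8% and 4.70% of the genome. The start of a protein-coding gene lay in 105 regions and its end in 118, and 41 regions held a whole protein-coding gene. Several protein-coding genes shared 105 of the regions, with at most 5 in one. By contrast, a gene overlapped 193 of the 862 L1 regions (22.4%, 19.6 to 25.3), exons covered 0.0481% of their length, and none held the start or end of a protein-coding gene.

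The longest region lay over Plec, which encodes plectin, a protein that links intermediate filaments to other parts of the cytoskeleton. It ran over 26494 bp at chr15:76168529-76195022, and 55.8% of it was exon. In GFP DOX and Cre mock it was a single peak of 26395 and 26490 bp. In Cre DOX its widest peak was 21678 bp of 3 in the region, and in GFP mock 5399 bp of 9. Peaks of GFP mock nevertheless covered 77.1% of the region, so that in this list the same DNA was cut into more peaks. The fold enrichment of the widest peak was 3.63 in Cre DOX, 4.75 in Cre mock, 4.61 in GFP DOX and 3.93 in GFP mock. These folds are the peak caller's ratio within 1 list and are not scaled between lists.

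Unlike Plec, several of the longest regions had their widest peak in a DOX list, and 3 of them are given next. Mock and DOX did not keep 1 order within GFP and Cre cells. The region of Kctd17 and Tmprss6, a membrane serine protease gene, at chr15:78431687-78444827 held a peak of 13141 bp in GFP DOX and 10817 bp in Cre mock. Its widest peak was 2542 bp in Cre DOX and 1086 bp in GFP mock. The region at chr17:45562290-45574882 spans Hsp90ab1, a heat shock chaperone gene, Slc35b2, a sulfate donor transporter gene, and Nfkbie, an inhibitor of NF-κB. Its widest peak was 12354 bp in Cre DOX, 8358 bp in Cre mock, 5701 bp in GFP DOX and 3295 bp in GFP mock. Zbtb7a, which encodes a transcriptional repressor, had a wide peak in every list (chr10:81134634-81146515). These were 11882 bp in Cre DOX, 10755 bp in Cre mock, 8506 bp in GFP DOX and 8615 bp in GFP mock.

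The regions of Fasn and Smtn were wide in Cre mock only. The peak over Fasn, the fatty acid synthase gene, was 11958 bp there, and the widest peak of the other lists was 4617 bp (GFP DOX), 4346 bp (Cre DOX) and 2463 bp (GFP mock). Over Smtn, the smoothelin gene of contractile cells, the peak of Cre mock was 11857 bp, with 4122 bp in GFP DOX, 2705 bp in Cre DOX and 1416 bp in GFP mock. Peaks of GFP DOX still covered 74.0% of the Fasn region and 74.7% of the Smtn region. A pair of adjoining regions over Csf1, the gene of macrophage colony-stimulating factor, were wide in more lists (chr3:107737790-107749531 and chr3:107749651-107761310). The widest peaks in the first were 7251 bp in Cre DOX, 6962 bp in Cre mock, 9808 bp in GFP DOX and 845 bp in GFP mock, and in the second 4006, 11374, 11089 and 2970 bp in that order.

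Wide peaks in all 4 lists marked 17 non-repeat regions. Trim8, which encodes a ubiquitin ligase, was a single peak in each list (chr19:46499647-46508638), with widths of 8017 bp in Cre DOX, 8992 bp in Cre mock, 8795 bp in GFP DOX and 8436 bp in GFP mock. The region of Phf23, Gabarap, Ctdnep1 and Dvl2 (chr11:69989491-70000845) includes Gabarap, a gene of autophagy, and Dvl2, a gene of Wnt signalling. Its peaks were 8690, 10690, 10850 and 8293 bp in the same order. Kmt2d, a histone methyltransferase gene, had 6784, 9037, 6818 and 7336 bp. The regions of Sharpin with Cyc1, of Sh2b3 and of Asb6 with Ntmt1 were also wide in all 4. On the Y chromosome, chrY:90737283-90745154 lay in no annotated gene and held peaks of 7872, 7740, 7460 and 7727 bp, with folds of 9.61, 10.6, 8.42 and 6.53. It had the highest fold of any non-repeat wide peak in each list. However, 44.4% of it was masked, and narrower peaks covered at most 0.0120% of the Y chromosome in any list. Whether its reads belong there was not tested. The nearest gene start, of Mid1-ps1, was 7903 bp away.

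**Figure D2:**
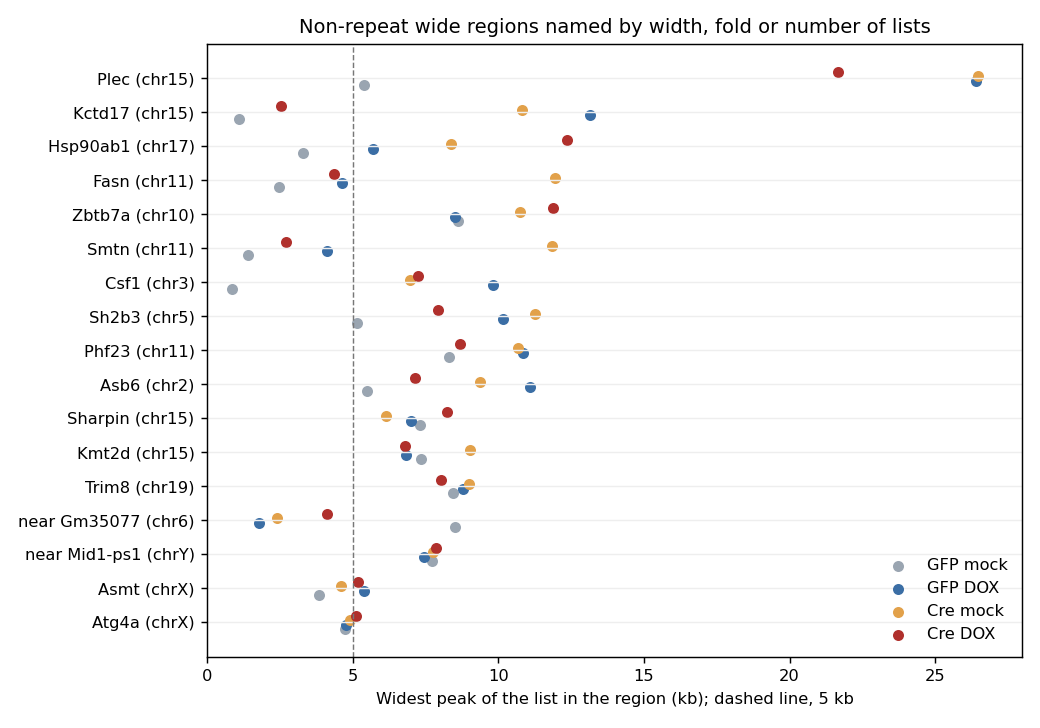
The widest peak of each list in the 17 non-repeat regions named for their width, fold or number of lists (peaks named only for lying at the width limit are not plotted), in kb, with 1 row per region and 1 point per list. The Plec region reaches 26.5 kb in Cre mock, and in the rows plotted the points of GFP mock lie left of those of Cre mock in all but those of Sharpin and of the region near Gm35077.

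Lists of gene families were then counted over the regions. Abundant nuclear non-coding RNAs had 2 of their 21 genes in non-repeat regions. Malat1 was wide in GFP DOX (8856 bp), Cre mock (9330 bp) and Cre DOX (8168 bp) and 1973 bp in GFP mock, and Neat1 shared a region with Frmd8 that was wide in GFP DOX alone (8775 bp). Of 58 collagen and matrix genes, 2 lay in such regions, Col1a1 and Col11a2. Col1a1, a main collagen of fibroblasts, was wide in Cre DOX only (5189 bp) with 4772 bp in Cre mock, 4553 bp in GFP DOX and 923 bp in GFP mock. None of 110 histone genes overlapped a wide region of any class. Vomeronasal receptor genes, which act in pheromone sensing, overlapped 8 L1 regions with 6 of their 565 members and no non-repeat region. As background, 0.813% of all GENCODE genes overlapped a non-repeat region and 0.305% an L1 region.

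The mitochondrial genome carried a pair of wide peaks in each list, which between them met across the origin of the circular map. The first ran from position 1 to 6515 over both ribosomal RNA genes and mt-Nd1, mt-Nd2 and mt-Co1, and its widest peak was between 6472 and 6515 bp in the 4 lists. The second ran from 10963 to 16299 over mt-Nd4, mt-Nd5, mt-Nd6 and mt-Cytb, between 5316 and 5337 bp. Fold enrichment there was between 2.93 and 3.89, and every list covered at least 99.3% of each region. The lists were therefore alike in cover here.

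The edges of non-repeat wide peaks lay near restriction sites. The DNA had been cut with EcoRI, HindIII, BsrGI, SspI and XbaI, whose sites occur 1.87 times per kb in the genome, 1.89 times in L1 regions and 0.461 times in non-repeat regions. Of the 912 edges of non-repeat wide peaks, 449 (49.2%) were within 100 bp of a cut site. Among 3 evenly spaced points inside each of the same peaks this was so of 67 of 1368 (4.90%). The median distance to a cut site was 105 bp for edges and 1291.5 bp for inner points. In narrower peaks with 50 to 60% GC, between 13.5% and 15.5% of edges were within 100 bp, with 0.369 to 0.414 sites per kb in these peaks. The edges are shown for 4 regions that were wide in every list, as 30 bases around the nearest site, which is in capitals.
Plec, left edge, XbaI, chr15:76168516-76168545: tcagaggcagcaTCTAGAgagtcagttcat
Plec, right edge, XbaI, chr15:76195052-76195081: taaggcaggagaTCTAGAgccactgtacag
Zbtb7a, left edge, SspI, chr10:81134852-81134881: gggcagtttgtaAATATTatcaacaacaga
Zbtb7a, right edge, BsrGI, chr10:81146630-81146659: tggggaaatctcTGTACAaagctaggagct
Trim8, left edge, XbaI, chr19:46499643-46499672: ctgctcaatttcTCTAGAcatttgagcaga
Trim8, right edge, HindIII, chr19:46508293-46508322: ccacagtccaggAAGCTTagggggacgggg
Phf23, left edge, SspI, chr11:69989398-69989427: gttttaagtaatAATATTcaggaaaggctc
Phf23, right edge, BsrGI, chr11:70000399-70000428: gggggggcgggtTGTACAcgtttgggggcg
The cut was 0 and 42 bp from the edges of the Plec region, 233 and 127 bp from those of Zbtb7a, 9 and 333 bp from those of Trim8 and 78 and 434 bp from those of Phf23. L1 wide peaks were the other way round. Of their 1804 edges 17.5% were within 100 bp of a cut site, against 32.8% of their 2706 inner points.

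**Figure D3:**
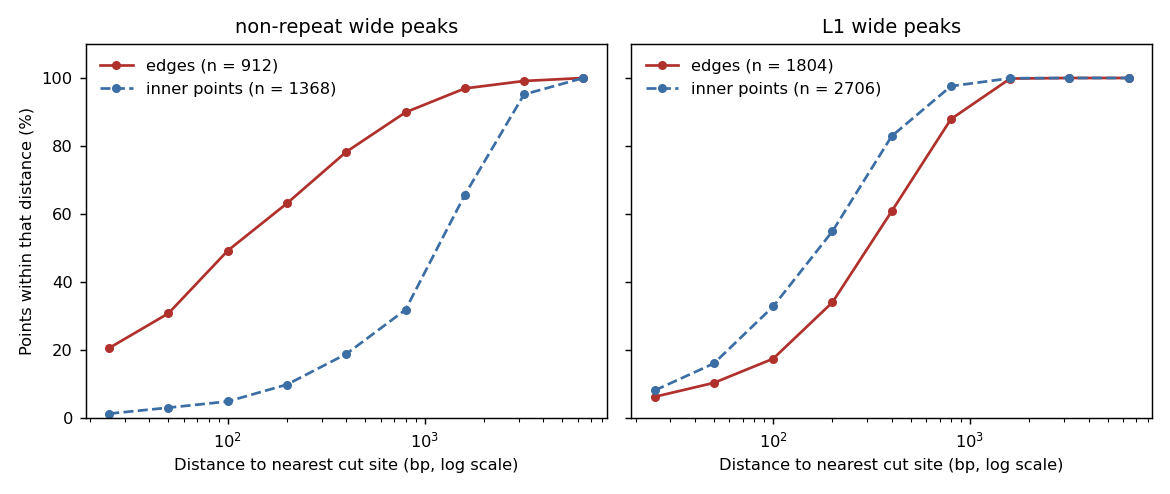
Share of points within a given distance of the nearest restriction site (log scale), for the edges of wide peaks and for 3 evenly spaced points inside each of the same peaks. In non-repeat peaks the edges lie nearer to sites than the inner points (49.2% against 4.90% within 100 bp), and in L1 peaks they lie farther (17.5% against 32.8%).

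Uncut DNA formed much of the non-repeat regions. A single restriction fragment filled at least 50% of 198 of them (74.2%) and at least 90% of 60 (22.5%), and 22 held no site. The 5 enzymes leave fragments of at least 3 kb over 4.76% of the genome, and such fragments made up 65.1% of the length of non-repeat regions and 1.69% of that of L1 regions. Looked at from the sequence alone, the genome has 2339 fragments of at least 5 kb, and 1456 of them overlap a protein-coding gene. Peaks covered at least 50% of such a genic fragment in 17.6% of cases in Cre mock, 13.2% in Cre DOX, 11.8% in GFP DOX and 5.49% in GFP mock. Of the 883 fragments away from protein-coding genes the shares were 2.27%, 3.51%, 1.81% and 2.60% in that order. Over genic fragments, which were taken by sequence and not by peaks, Cre mock was highest and GFP mock lowest in this share. The share of genic fragments with any peak was 75.7% in Cre mock, 68.5% in Cre DOX, 65.2% in GFP mock and 62.98% in GFP DOX, so that GFP DOX was lowest by that measure. Because a whole fragment is pulled down, the width of a peak and the length of the hybrid within it cannot be told apart in these regions.

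Many non-repeat regions were wide in more than 1 list, and the cover given next includes those. Of the 119 regions that were wide in Cre DOX 81 were wide in Cre mock too, and of the 113 that were wide in GFP DOX 82 were. In the 119 regions that were wide in Cre DOX, the median share covered by peaks of any width was 94.1% in Cre mock, 85.9% in GFP DOX and 54.5% in GFP mock. In the 113 regions that were wide in GFP DOX it was 94.1% in Cre mock, 83.9% in Cre DOX and 53.5% in GFP mock. In the 200 regions that were wide in Cre mock it was 83.6% in GFP DOX, 79.7% in Cre DOX and 46.6% in GFP mock. For the regions of GFP mock, 23 in number, the median share covered lay between 91.9% and 96.7%, depending on the covering list. Single regions could lie far below these medians. GFP mock thus had the least cover of the non-repeat regions of each other list, and broke them into more peaks (a median of 3 per region).

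L1 regions were nearly all chosen by Cre DOX, and the other lists covered less of them. In the 850 L1 regions wide in Cre DOX the median share covered was 48.7% in Cre mock, 43.8% in GFP DOX and 34.0% in GFP mock, in a median of 3 peaks each. Only 16 of them held no peak at all in GFP mock, 7 in Cre mock and 5 in GFP DOX. The converse was closer to complete: Cre DOX covered a median of 98.6% to 99.1% of the 10, 18 and 24 L1 regions chosen by the other lists. Of the 862 L1 regions 827 (95.9%) were between the lower limit of 5 kb and 7 kb, and 441 held an L1 copy of at least 4000 bp. The longest, at chr6:130505654-130517680, was 12027 bp in Cre DOX, where the widest peak was 1936 bp in GFP DOX, 1831 bp in GFP mock and 1340 bp in Cre mock. The L1 region within Vmn1r54, a vomeronasal receptor gene, at chr6:90253068-90264855 was wide in all 4 lists. Its widest peak was 11788 bp in Cre DOX and 10078 bp in Cre mock.

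Several of the highest folds among wide peaks lay outside the non-repeat class. The region in Ndst3, a heparan sulfate enzyme gene, was mostly masked and outside the L1 class. It held peaks of 7101 to 7392 bp in all 4 lists, with a fold of 9.69 in GFP mock and 4.18 in GFP DOX. An L1 region near 9130204L05Rik on chromosome 3 had a fold of 10.3 in a Cre mock peak of 7093 bp. Another on chromosome 3, near Gm38317, had 6.69 in GFP mock and 7.43 in Cre mock. Over whole lists the median fold of wide peaks was 3.77 against 3.12 for all peaks in Cre DOX, 4.07 against 3.48 in Cre mock, 4.04 against 3.53 in GFP DOX and 4.07 against 3.54 in GFP mock.

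Covered length was then compared over all merged regions of at least 2000 bp, of which there were 12836. A length at least 1.5 times that of the other list was counted as higher or lower. The widths had chosen the members, so the counts describe them only. From Cre mock to Cre DOX, 664 of 862 L1 regions were higher and 0 lower, and 13 of 266 non-repeat regions (266 after merging with peaks of any width) were higher and 57 lower, where over all regions 66.6% were higher and 7.3% lower. From GFP mock to GFP DOX, 311 L1 regions were higher and 94 lower, and 160 non-repeat regions were higher and 6 lower, with 43.7% and 21.7% of all regions. From GFP mock to Cre mock, 359 L1 and 180 non-repeat regions were higher and 66 and 4 lower, with 50.2% and 15.8% of all. From GFP DOX to Cre DOX, 712 L1 and 24 non-repeat regions were higher and 0 and 30 lower, with 73.8% and 4.46% of all. These comparisons share lists with each other.

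To describe L1 copies not chosen by their own peaks, all copies in the genome with an alignment of at least 4000 bp to the intact copy were taken. The intact copy had itself been picked for its likeness to the wide region that matched the most other wide regions. The set is therefore not fully free of the choice by width. There were 15382, of which 3130 kept the frame of 1281 codons. Peaks covered 22.3% of a copy on average in Cre DOX, 8.34% in Cre mock, 8.12% in GFP DOX and 4.68% in GFP mock. In copies with the intact frame these means were 0.282%, 0.0514%, 0.0504% and 0.037%, and none of the 3130 was covered over 50% in any list. A median of 2.55% of the 100-base words of the intact copies occurred in no other copy, against 46.0% in the other copies. How reads that fit several places were placed is not given in the sources used here, so that a lack of hybrids at intact copies and a lack of placed reads cannot be told apart.

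Cover rose with the share of unique words in every list. In Cre DOX the mean share of a copy under peaks was 0.276% where fewer than 20% of words were unique, 14.9% between 40 and 60%, 57.6% between 80 and 90% and 73.6% from 95% upward. In GFP mock it rose from 0.0452% to 17.2% over the same range. Among the 2770 copies with at least 90% unique words, peaks covered 71.7% in Cre DOX, 29.3% in Cre mock, 27.3% in GFP DOX and 16.7% in GFP mock. At least 50% of the copy was covered in 2284, 535, 459 and 179 of them, in that order. GFP DOX and Cre mock were thus near each other, GFP mock was below both and Cre DOX far above. The wide L1 regions came from this end, with a median of 96.2% unique words in the 441 that held such a copy, and none held an intact frame.

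**Figure D4:**
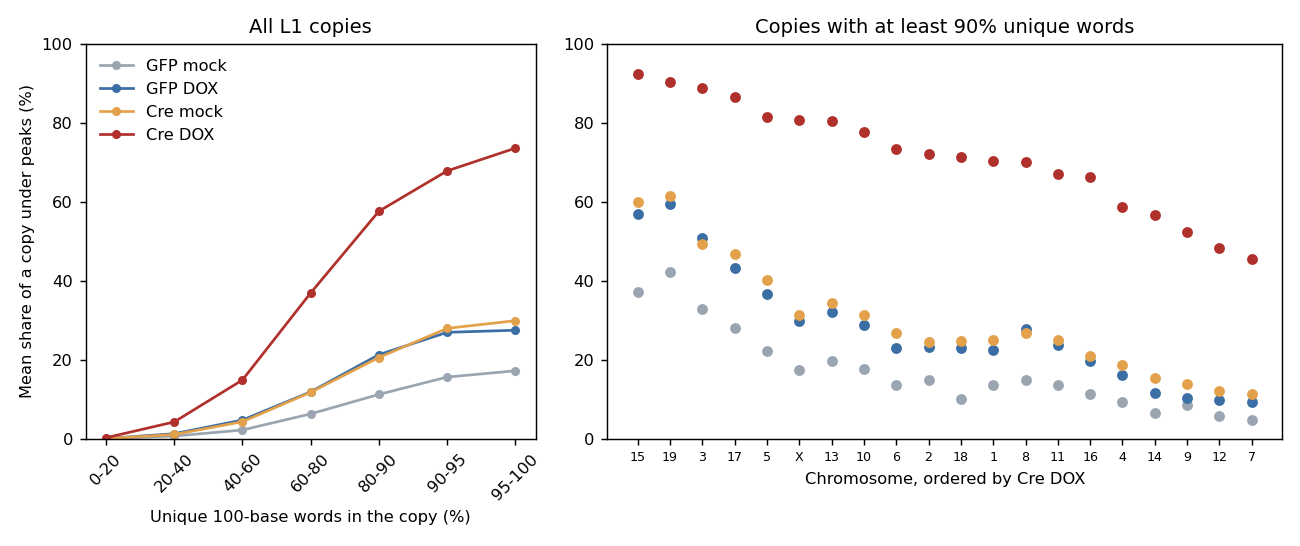
Mean share of an L1 copy under peaks, in percent, by the share of its 100-base words found in no other copy (left, 15382 copies) and by chromosome for copies with at least 90% unique words (right, chromosomes with at least 20 such copies). Colours are the 4 lists; cover rises to 73.6% in Cre DOX and 17.2% in GFP mock on the left, and chromosomes 15, 19, 3 and 17 stand highest in each list on the right.

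Peaks covered both L1 reading frames and fell off beside them, and the ends of the elements beyond the frames were not mapped. In 1005 copies that were complete from ORF1 to ORF2 and had at least 90% unique words, the share of copies under a peak of Cre DOX was between 4.28% and 7.76% at 1 kb or more outside the frames. In the bins nearer to ORF1 it was as low as 3.18%, at 750 to 500 bp before its first base. It reached 82.4% at 1500 to 1750 bp from the first base of ORF1, near the start of ORF2, and lay at 53.5% or above throughout both frames. In the other lists the highest share was 21.3% in GFP mock and 40.5% in GFP DOX, both at 1250 to 1500 bp, and 38.4% in Cre mock at 2000 to 2250 bp. At 1 kb or more outside the frames these lists stayed at or below 2.99%. In all 4 lists the share fell back within about 1 kb of either end of the frames.

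**Figure D5:**
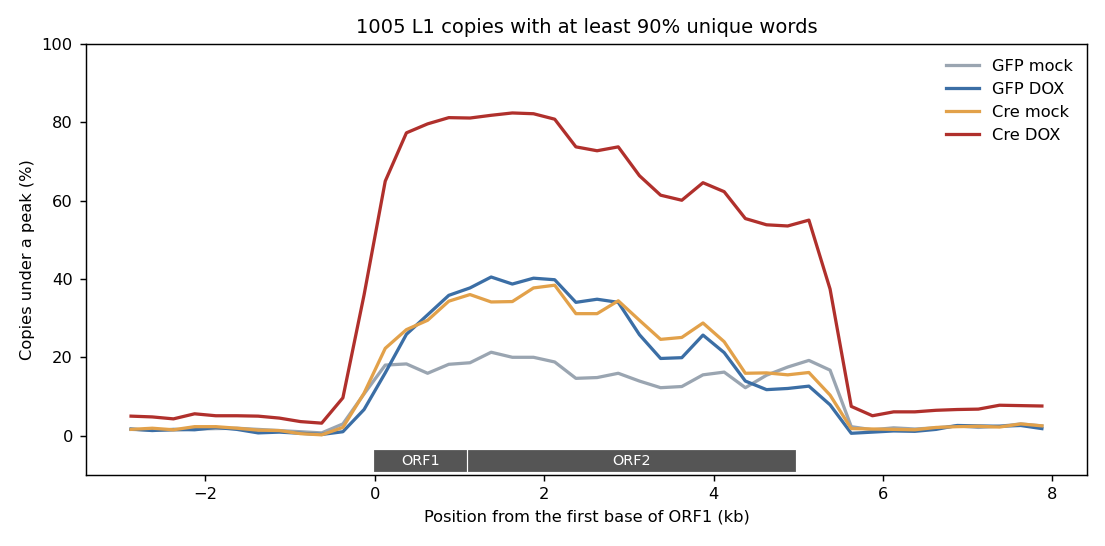
Share of 1005 L1 copies under a peak, in percent, by position in kb from the first base of ORF1, in bins of 250 bp, for the 4 lists; grey bars mark ORF1 and ORF2. Cre DOX rises to 82.4%, GFP DOX to 40.5%, Cre mock to 38.4% and GFP mock to 21.3%, and all are below 8% at 1 kb or more outside the frames.

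L1 held a different share of the covered length in each list. L1 sequence here means only stretches aligned to the reading frames of the intact copy, of at least 200 bp at 80% identity or more. Such sequence was 6.31% of the genome. It made up 56.4% of the length covered by Cre DOX, 37.0% of Cre mock, 49.4% of GFP DOX and 34.4% of GFP mock. More diverged L1, and L1 outside the frames, was counted with the rest of the genome. In the rest of the genome the covered share was 1.52%, 1.17%, 0.635% and 0.931%. From GFP mock to GFP DOX the cover of L1 copies with unique words was 1.64 times and that of the rest of the genome 0.683 times. From Cre mock to Cre DOX the same ratios were 2.45 and 1.29, and from GFP mock to Cre mock 1.75 and 1.26. From GFP DOX to Cre DOX they were 2.62 and 2.39. Over all L1 sequence, unique or not, the covered share was 29.2% in Cre DOX, 10.2% in Cre mock, 9.20% in GFP DOX and 7.25% in GFP mock, so the ratios depend on which copies are taken. With a single library in each group, the treatment and the library cannot be told apart in these ratios. A peak list holds no measure of Rtel1, so the deletion could not be checked here.

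Wide regions were spread unevenly over the chromosomes. Chromosome 3 held 204 of the 862 L1 regions, the X chromosome 132, chromosome 15 120, chromosome 17 57 and chromosome 19 51, while chromosomes 7, 9 and 12 held 3 each and chromosome 14 held 2. The number of copies did not follow this order, as chromosomes 7 and 14 had 150 and 120 copies with at least 90% unique words and chromosome 15 had 101. Of such copies on chromosome 15, peaks covered 92.4% in Cre DOX, 59.9% in Cre mock, 57.03% in GFP DOX and 37.3% in GFP mock. On chromosome 7 the values were 45.6%, 11.2%, 9.40% and 4.75%. Chromosomes 15, 19, 3 and 17 were the highest of 20 in all 4 lists, and chromosomes 7, 12, 9 and 14 the lowest. The order of the 20 chromosomes was alike in any 2 lists (Spearman's rho of 0.959 to 0.985, across chromosomes of the same libraries, which are not independent). The L1 cover and the narrower peaks of the same list gave rho of 0.898 to 0.941, but both count many of the same peaks, so that part of this likeness is built in. The narrower peaks covered 2.89% of chromosome 15 and 0.505% of chromosome 12 in GFP mock. Non-repeat regions were also most frequent on chromosome 15, at 52.2 per 1000 protein-coding genes, then on chromosomes 19 (29.2) and 17 (25.6), and were least frequent on chromosome 12 (1.56). The part of copy number or of chromosome-wide signal in this was not tested. The Y chromosome held 781 L1 copies with a median of 2.18% unique words, and no wide L1 region. Its 16 copies with at least 90% unique words had no peak cover in any list either. Narrower peaks covered only 0.00613% to 0.0120% of this chromosome, so the lack of L1 regions there cannot be tied to the unique words.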

How the data were processed

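DRIP-seq was analysed in 4 DRIP libraries of MEFs, each from 3 pooled immunoprecipitations, with 1 library per group as given by the labels. The 4 input libraries were not analysed. The authors ran nf-core/chipseq with BWA alignment to mm10 and MACS2, and deposited 1 peak list per DRIP library. The deposited columns were the peak's start and end, a score (10 times the −log10 q-value), a fold enrichment (ratio), and −log10 p-values and −log10 q-values. The methods name a narrow-peak option, while the lists have the broad-peak layout and a lowest score of 10 in each. The lists were therefore read as broad peaks. In broad mode nearby enriched stretches are linked across weaker gaps, so a width may include such gaps. The use of the inputs as controls is not given in the sources used here. No read counts were used, so the depth is unknown.

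Peaks of at least 5000 bp were merged by 1 bp of overlap. Genes came from GENCODE M21. Predicted G4s were found with G4Hunter (window 25, score 1.5), and L1 by alignment (minimap2 2.31-r1302, blastn 2.17.0) and reading frames. Scripts used Python 3.11.15, pandas 2.3.3, numpy 2.4.6, scipy 1.17.1 and networkx 3.6.1, and were tested on simulated data. The intervals given on shares are exact binomial (95%) and cover counting error only. Named regions were the 10 longest, those of the 3 widest and the 3 highest-fold wide peaks of each list, those wide in the most lists (at most 10), and the 3 peaks on either side of the width limit. The regions, classes and gene lists were chosen with earlier results of these data known. Alternatives changed the width, the merging, the score, the G4 threshold, the gene set and the lists included.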

Additional observations from a re-analysis of the deposited data

How the results depend on the processing

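Of 70 alternatives to 19 results, 20 left the value within its limits and 50 moved it. No paired analysis was possible because each group had 1 library and no result came from a test. With the GFP lists before the Cre lists, and mock before DOX in each, wide peaks numbered 117, 297, 471 and 2261 at 4000 bp, 0, 7, 17 and 8 at 10000 bp, and 18, 67, 106 and 475 among top-decile peaks. Merged regions numbered 2545, 23 and 536 under these settings and 291 without the list of Cre DOX. At 10000 bp Cre mock and not Cre DOX had the most wide peaks. Median cover was 32.7%, 47.2% and 51.6% in the first 3 lists at 4000 bp, 47.9%, 88.6%, 97.02% and 78.2% at 10000 bp, and 0 in all 4 with top-decile peaks. Regions with a G4 were 46.1% at 4000 bp, 100% at 10000 bp and 44.9% at a score of 2, and those over a gene 36.7%, 82.6% and, for protein-coding genes, 33.7%. Median GC content was 38.1% and 54.8%, and the masked share was 12.01% at 10000 bp. The following alternatives were chosen after seeing the data. L1 regions numbered 40 without Cre DOX. Mean cover of L1 copies was 15.1%, 25.6%, 26.8% and 67.6% from 80% unique words, 73.6% in Cre DOX from 95%, 4.68%, 8.12%, 8.34% and 22.3% over every copy, and 1.36%, 2.48%, 2.86% and 15.8% with top-decile peaks. The cause of these moves was not tested.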
